A study of Mus musculus with 2 samples.

Results

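Genes of DNA double-strand break (DSB) repair and signalling were examined in cells isolated from mouse kidney as proximal tubular (PT) cells. PT cells are those of the first nephron segment. The genes were taken from a list of 37 chosen by function, and 32 of them could be joined to the arrays, out of 19505 genes in all. Atrip, Xrcc2, Rad54b, Rbbp8 and Dclre1c were not joined to a probe set and are not analysed here. RNA was hybridised to Clariom S mouse arrays, on which short probes capture labelled RNA and its brightness is read, with 1 array for wild-type mice and 1 array for KAT5 KO mice. Both samples were labelled as male mice at 8 weeks of age, and 64 ng of RNA was used for each. The KAT5 KO mice carried KAT5 alleles flanked by loxP sites and a γGT-Cre transgene on a C57BL/6J background, and whether the wild-type mice carried the flanked alleles is not given in their labels. The sample descriptions also mention embryos, which differs from the stated age. γGT-Cre acts in all segments of the PT and most intensely in S3, so that the deletion need not have been equal in all PT cells. PT cells were collected by depletion of CD31-positive cells and magnetic selection for Prominin1. How many animals stood behind each array is not given in the sources used here.

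A DSB severs both strands of the helix and is mended along 2 main routes. In homologous recombination the broken end is trimmed to a single strand, which is then paired with the sister chromatid, and the route is therefore used mainly in S and G2 phase. In end joining the ends are held by Ku and ligated directly, which needs no sister and serves cells that seldom divide, as most PT cells of an adult kidney. The break is sensed by the MRN complex and signalled by the kinases ATM and ATR. KAT5 (also called TIP60) is an acetyltransferase whose known substrates in this response include ATM and histones at the break.

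With 1 array per genotype, neither a spread between animals nor a p-value could be obtained, and precision is limited by this number. A level is the deposited log2 value of a probe set, and a difference is the level with KAT5 KO less the wild-type level, in log2 units. A background level, 5.13, was set from 1450 chemosensory receptor genes (odorant, pheromone and taste), assumed silent in kidney, and levels under it were raised to it. Where only 1 array lay above it, the difference is a lower bound. As the only yardstick of scatter, the unraised difference of these dim receptor genes had an SD of 0.55, which is not an error rate for brighter genes.

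The targeted gene Kat5 had levels of 10.20 in wild-type and 8.67 in KAT5 KO cells, or 34.8% of the wild-type level. Whether its probes lie in the deleted part is not stated in the sources used here. Although both samples were labelled male, all 3 Y-linked genes checked were above background on the wild-type array and below it on the KAT5 KO array. All 16 PT markers were 2-fold or more higher on the KAT5 KO array, with a median difference of 7.08. Of 16 measured leukocyte markers 15 were lower (median -2.33), all 16 were above background on both arrays, and Cd3e was above it on neither. For the loop of Henle and distal nephron, 10 of 12 markers were lower, 1 was higher and the median was -3.59. Endothelial markers had a median of -1.21 over 9 genes and stroma markers of -1.21 over 6. On the wild-type array the 16 PT markers lay between 5.21 (Slc22a6) and 13.77 (Slc34a1). Umod and Slc12a3 of the loop and distal list stood there at 19.93 and 18.14, and the leukocyte marker Laptm5 at 19.45. The brightest markers of that array were thus not those of the PT, and wild-type cells here means the cells on it, whatever their type. On the log2 scale, the summed level went from 15.19 to 22.28 for the PT list, from 20.98 to 19.08 for leukocytes and from 20.52 to 17.13 for the loop and distal list. The sums of 22.28 and 20.52 are lower bounds, since Slc34a1 and Umod lay at the highest level on those arrays, 19.93. The same arrays carry every comparison given here, so genotype, sex and the mix of cells cannot be told apart, and fewer cells of a type cannot be separated from less RNA per cell.

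Of the 32 repair genes, 28 were above background on at least 1 array and 22 on both. On the KAT5 KO array 3 of these 28 were 2-fold or more higher, namely Xrcc5, Lig4 and Xrcc6, and Mre11a alone was 2-fold or more lower. Over all 11654 measured genes, 17.7% were higher and 15.9% were lower by this measure, against 10.7% and 3.57% of the repair genes. The share of repair genes past 2-fold thus lay below the background in both directions. The median difference of the 28 genes was -0.23 and that of all measured genes was -0.05. All 3 higher genes belong to end joining, and no gene of homologous recombination was counted past 2-fold in either direction. For Palb2, Rad54l and Bard1 only a lower bound is known, and without the background level Palb2 (-1.13) and Rad54l (-1.25) were counted as lower too.

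**Figure D1:**
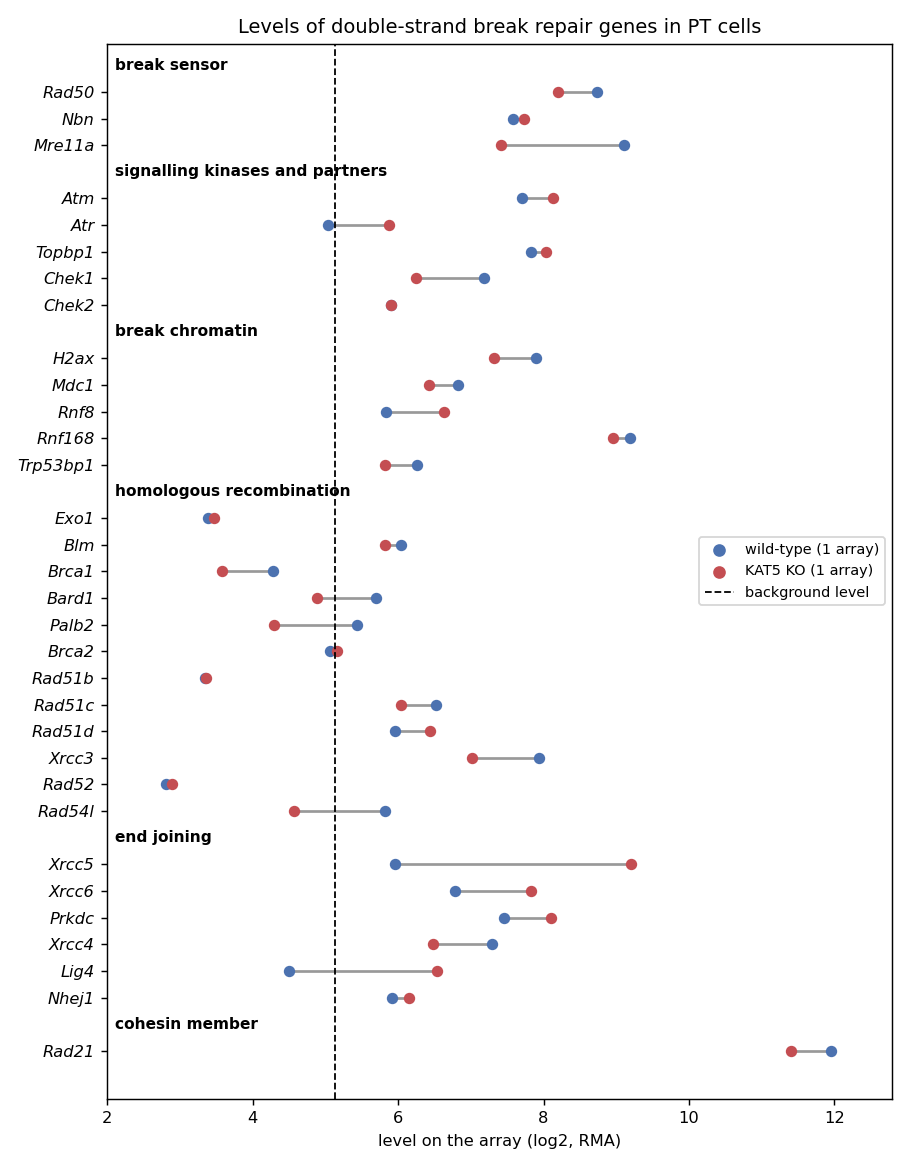
Levels of the 32 repair genes on the wild-type array (blue) and the KAT5 KO array (red), on a log2 scale and grouped by role, with 1 array per genotype and no error bars. The dashed line is the background level of 5.13, and the widest gaps are those of Xrcc5, Lig4 and Mre11a.

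The sequences next to the start sites of the 4 genes past 2-fold are shown, with that of Xrcc4, since 4 of these 5 genes share their start region with a gene on the opposite strand. They were taken from RefSeq (build GRCm38.p6), in which 25 of the 32 genes had an entry. For Xrcc5 the 250 bases before the start are given, and for the others the bases between the starts of the gene and its neighbour, each 5′ to 3′ on the strand of the named gene. Capitals mark matches to 6 motifs, searched on both strands. The letters were CCGGAAGT for ETS factors, GCATGCGC for NRF1, and TTTCGCGC, TTTGGCGC or TTTCCCGC for E2F factors. The shorter motifs were the CCAAT box, the letters GGGCGG for the factor SP1 and the letters TATAAA for the TATA box. None of the letters of one motif contain those of another.

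Xrcc5, chr1:72307171-72307420, plus strand: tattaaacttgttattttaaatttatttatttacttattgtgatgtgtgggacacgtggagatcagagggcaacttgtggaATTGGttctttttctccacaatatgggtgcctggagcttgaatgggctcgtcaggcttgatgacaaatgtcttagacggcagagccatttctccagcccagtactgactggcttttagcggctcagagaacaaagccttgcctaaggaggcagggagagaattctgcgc
Xrcc6 to Desi1, chr15:82016221-82016368, plus strand: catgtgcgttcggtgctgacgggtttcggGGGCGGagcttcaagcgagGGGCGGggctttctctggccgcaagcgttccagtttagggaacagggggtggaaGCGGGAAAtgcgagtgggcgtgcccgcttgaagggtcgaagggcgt
Lig4 to Abhd13, chr8:9977681-9977716, minus strand: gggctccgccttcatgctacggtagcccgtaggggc
Mre11a to Ankrd49, chr9:14784574-14784653, plus strand: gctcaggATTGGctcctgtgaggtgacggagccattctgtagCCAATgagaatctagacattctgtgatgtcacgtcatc
Xrcc4 to Tmem167, chr13:90089609-90089666, minus strand: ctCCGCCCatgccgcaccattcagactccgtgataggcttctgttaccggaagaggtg

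The stretch before Xrcc5 held 44.8% G and C, against 50% for Mre11a, 58.6% for Xrcc4, 64.9% for Xrcc6 and 69.4% for Lig4. These stretches are unlike in kind and length, 250 bases before a start for Xrcc5 and shorter gaps between 2 starts for the others. Between the Mre11a and Ankrd49 starts lay a CCAAT match in each orientation, and between Xrcc6 and Desi1 an E2F and 2 SP1 matches. The stretches shown do not hold all matches near these starts. In windows from 250 bases before to 50 bases after a start, Lig4 also had ETS, NRF1 and SP1 matches. In such windows Xrcc5 also had an NRF1 match, Xrcc6 a CCAAT match and Mre11a an SP1 match. A match is a run of letters and does not show that a factor binds there.

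Of the 6 end joining genes measured, 3 were 2-fold or more higher with KAT5 KO and 3 were within 2-fold, with a median difference of 0.85 (1.80-fold). The difference was positive in 5 of them, and in 5512 of the 11654 measured genes. The largest difference among all repair genes was that of Xrcc5, which encodes Ku80, the larger Ku subunit that slides onto broken ends (gene at chr1:72307417-72394953). The Xrcc5 level was 5.95 in wild-type cells against 9.20 in KAT5 KO cells, a difference of 3.25 (9.50-fold), and 3.87% of all measured genes were higher by more. Its wild-type level lay close to the stricter background level of 5.89, used as an alternative. Xrcc6 encodes Ku70, the partner of Ku80 in an obligate heterodimer. It was at 6.78 and 7.83, a difference of 1.05 (2.07-fold), just past the 2-fold mark and exceeded by 16.9% of measured genes. With quantile normalization it was 0.98, short of 2-fold. The subunits of Ku were therefore higher by unequal amounts, 2.20 apart on the log2 scale. Prkdc encodes the catalytic subunit of DNA-PK, the kinase that Ku recruits, and stood at 7.46 and 8.11, 1.57-fold higher.

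The ligation step was split. Lig4, the ligase that seals the ends, was below background in wild-type cells at 4.50 and reached 6.53 in KAT5 KO cells, at least 2.64-fold higher. With the higher background levels of 5.59 and 5.89 the bound was 0.94 and 0.64 on the log2 scale, under 2-fold. Xrcc4, the scaffold that binds and stabilises this ligase, was at 7.29 and 6.49, a difference of -0.81. These partners of 1 complex lay on opposite sides of 0, at least 2.21 apart. Nhej1, or XLF, which bridges the ends together with XRCC4, was at 5.91 and 6.15 and differed by 0.24.

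Fewer genes of homologous recombination were clear of the background. Of the 12 on the arrays, 4 were not above background on either array, 4 were above it on 1 array only and 4 on both. The 8 measured genes had a median difference of -0.39 (1.31-fold lower), with 6 negative and 2 positive values from -0.92 to 0.47. Raising levels to the background shortened 4 of these differences, and that of Rad54l was -1.25 before it, so that the median and the range depend on the background level. All 6 end joining genes were measured. Over all genes on the arrays, 59.7% were measured.

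Trimming of the ends is begun by MRN and extended by the exonuclease EXO1 and the helicase BLM. Exo1 was at 3.39 and 3.47, under the background level on both arrays. Blm was at 6.05 and 5.82, a difference of -0.23.
The BRCA proteins act on the trimmed strand. Brca1 was not above background on either array, at 4.28 in wild-type and 3.58 in KAT5 KO cells. Its partner Bard1, with which it forms a ubiquitin ligase, was at 5.70 and 4.88 and was at least 1.48-fold lower. Palb2, which links BRCA1 to BRCA2, was at 5.43 and 4.29 and at least 1.23-fold lower. Brca2 lay close to the background level on both arrays, just under it at 5.06 and just over it at 5.17. All 4 genes of this group were thus under the background level on at least 1 array, so that their differences are bounds or not given.

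Later steps of recombination need further mediator proteins. Of these, Xrcc3 was at 7.93 and 7.02 and Rad51c, its partner in a complex, at 6.52 and 6.04, giving differences of -0.92 and -0.48. Rad51d, a subunit of another mediator complex, was at 5.96 and 6.44 and differed by 0.47 in the opposite direction. Rad51b was under background at 3.34 and 3.35. For strand exchange, Rad54l, a motor protein that moves along DNA, was at 5.82 and 4.57, at least 1.61-fold lower. Rad52, a strand-annealing protein, was not above background, at 2.81 and 2.89.

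The median of the recombination genes lay 1.24 below that of the end joining genes, a gap of 2.36-fold. With the mean in place of the median the gap was -1.30. The gap was -0.96 with a stricter background level and -0.92 with the wider lists, which add Rad50, Nbn and Mre11a to recombination and Trp53bp1 and Rnf168 to end joining, so its size under these settings was less than 2-fold. With only genes above background on both arrays the gap was -1.004, barely past 2-fold. That setting leaves out Bard1, Palb2, Brca2, Rad54l and Lig4, whose differences are lower bounds. Without Xrcc5 the gap was -1.04. The lists still overlapped, since Xrcc4 lay lower than Blm, Rad51c and Rad51d, and Rad51d higher than Nhej1. Several recombination genes are made mainly in dividing cells, and proliferation markers had a median of -0.72 on the same arrays. Of 22 on the arrays 12 were measured, of which 4 were 2-fold or more lower (33.3%, against 15.9% of all measured genes), none were higher and 8 were within 2-fold. Among these markers Mki67, made in cycling cells, was at 8.32 and 6.73, and the replication clamp Pcna was at 13.71 and 12.53. The summed level of this list went from 13.87 to 12.76, and Cdk1 and Cdc20 were not above background on either array. Without the 6 recombination genes known to be raised in S phase, of which Brca1 and Exo1 were not measured, the gap was again -1.24. The same genes, Palb2 and Rad51c, still set the median, so the unchanged gap does not bear on dividing cells. The part of proliferating cells or of the lower leukocyte markers in these values was not tested. Nor was that of the larger shifts in PT markers (median 7.08) and in loop and distal markers (median -3.59).

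**Figure D2:**
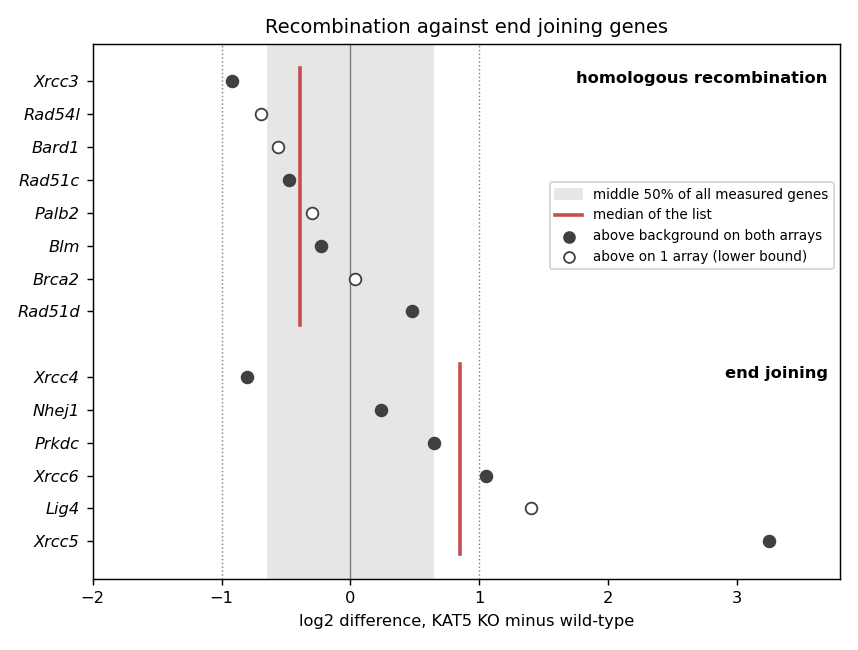
Difference between the arrays (log2, KAT5 KO minus wild-type) for the 8 measured genes of homologous recombination and the 6 of end joining, with red lines at the list medians of -0.39 and 0.85 and dotted lines at 2-fold. Grey marks the middle 50% of all measured genes, from -0.64 to 0.64, and open points are lower bounds.

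The MRN complex, which tethers broken ends and activates ATM, differed among its 3 subunits. Mre11a encodes the nuclease subunit (gene at chr9:14784654-14837125). Its level was 9.10 in wild-type and 7.42 in KAT5 KO cells, a difference of -1.68 (3.21-fold lower), and 6.84% of measured genes were lower by more. Rad50, the tethering ATPase, was at 8.74 and 8.20, a difference of -0.53. Nbn, the subunit that binds ATM, was at 7.58 and 7.73 and differed by 0.15. Mre11a therefore lay 1.15 below Rad50 and 1.84 below Nbn in its difference.

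None of the 5 measured signalling kinases and partners reached 2-fold, and their median was 0.20. Atm, the kinase activated at DSBs, was at 7.71 and 8.13. Atr, the kinase of single-stranded DNA and stalled forks, was under the background level at 5.04 in wild-type cells and stood at 5.87 in KAT5 KO cells, at least 1.67-fold higher. Topbp1, the activator of ATR, was at 7.83 and 8.04. The downstream kinases differed from each other in their values. Chek1, which ATR activates, was at 7.19 and 6.24, a difference of -0.95 that fell just short of 2-fold. Chek2, which ATM activates, was at 5.90 on both arrays, barely above the stricter background level of 5.89.

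Genes acting on chromatin around the break were all within 2-fold, with a median of -0.40. Of the 5 differences 4 were negative, as were 6135 of the 11654 of all measured genes. H2ax, the histone variant whose phosphorylated form γH2AX marks DSBs, was at 7.90 and 7.32 (-0.58). Mdc1, which binds γH2AX, was at 6.83 and 6.43. Rnf8 and Rnf168 are ubiquitin ligases that act in turn after MDC1. Rnf8 was at 5.84 and 6.64, a difference of 0.80, whereas Rnf168 was at 9.18 and 8.96, a difference of -0.23. Trp53bp1, encoding 53BP1, which protects ends from trimming, was at 6.26 and 5.81. Rad21, the cohesin subunit that closes the ring around sister chromatids, was at 11.96 and 11.41, a difference of -0.55. These values are of RNA and say nothing of the phosphorylated or acetylated proteins.

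Head-to-head neighbours offered a comparison within the same start region, since a gene and its neighbour on the opposite strand may share regulatory sequence. By the RefSeq starts, 12 repair genes had such a neighbour within 1000 bases, and in 7 of these both genes were measured. Mre11a and Ankrd49, whose starts lie 81 bases apart, were both lower, Ankrd49 going from 8.94 to 7.78 (-1.16). Lig4 and Abhd13 lie 37 bases apart, and there the neighbour was at 10.56 and 9.98, a difference of -0.57 beside the higher Lig4. Desi1, 149 bases from Xrcc6, was at 8.18 on both arrays (0.01). RefSeq also places the start of the Xrcc6 gene record further upstream, beyond Desi1. Tmem167, 59 bases from Xrcc4, was at 10.31 and 10.52 (0.21).
For the signalling kinase Atm (0.42), the neighbour Npat, a regulator of histone genes, differed by -0.78. Nbr1, an autophagy receptor next to Brca1, was at 11.52 and 9.01 (-2.51), while Brca1 was not above background. Of the 3 genes past 2-fold that had a measured neighbour, only Mre11a had a neighbour past 2-fold, and in the same direction. Over all 463 measured head-to-head pairs, with both genes of each pair counted, 173 genes were higher and only 55 were lower. Of the neighbours of a higher gene 26.6% were higher too and 2.31% were lower. Of the neighbours of a lower gene 14.5% were lower too and 7.27% were higher. Lower genes were thus scarcer in pairs than higher ones, so the shares over all measured genes are not the base for these values.

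**Figure D3:**
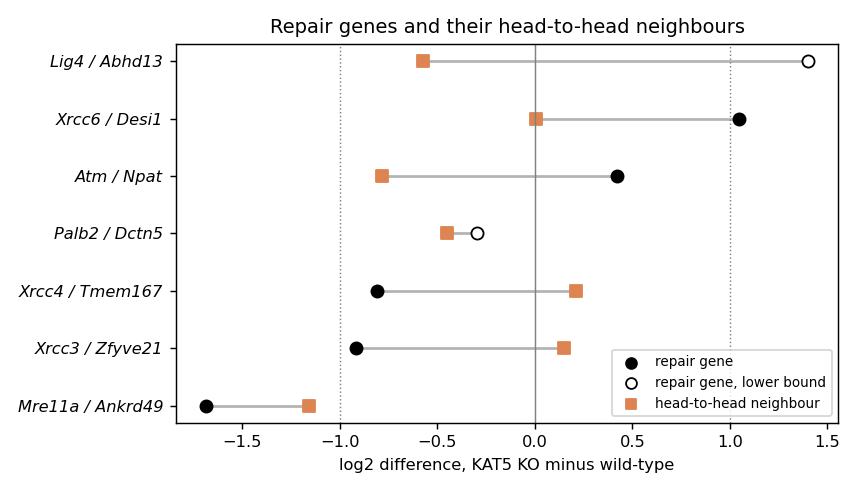
Differences (log2, KAT5 KO minus wild-type, 1 array each) of 7 repair genes (circles, open for lower bounds) and of their head-to-head neighbours (squares), with dotted lines at 2-fold. Mre11a and Ankrd49 both lie below -1, whereas Lig4 and Xrcc6 lie above 1 and their neighbours do not.

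Of the 6 motifs, E2F had the largest ratio between its share in the repair genes and that in all start regions. It occurred in 8 of 29 windows of repair genes (27.6%), each from 250 bases before to 50 bases after a start, and in 1.84% of all 32851 windows. E2F factors drive genes of the G1 to S transition. The matches fell in 7 genes, and 24 bases around a match are shown for 6 of them, with the motif in capitals, since Xrcc6 is given above. Starts are those of the promoter table. The gene records of Brca2, Chek2 and Topbp1 begin further upstream, so that these matches lie inside them, and the Rad51c match spans the start.

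Bard1, chr1:71103166-71103189, minus strand: ccgctcagTTTCCCGCtcaggaag
Brca2, chr5:150522445-150522468, plus strand: aggccacaGCGGGAAAcagacaca
Chek2, chr5:110839823-110839846, plus strand: gattagccGCGGGAAAccaagacg
Mdc1, chr17:35841474-35841497, plus strand: tcagcctgTTTCCCGCcggtagcc
Rad51c, chr11:87404944-87404967, minus strand: ccgcgaggGCGGGAAAagcaaggg
Topbp1, chr9:103305190-103305213, plus strand: ctcggttgGCGCGAAAgtcggttc

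These 7 genes did not lie on a common side. Differences were negative for Bard1, Rad51c and Mdc1 (-0.57 as a bound, -0.48 and -0.40), close to 0 for Chek2 and Brca2, and positive for Topbp1 (0.20) and Xrcc6 (1.05). The other motifs, over the same windows, were found in 10.3% of repair gene windows against 3.89% of all for ETS, in 10.3% against 2.71% for NRF1, in 51.7% against 37.4% for CCAAT, in 72.4% against 35.7% for SP1, and in 6.90% against 13.6% for TATA.

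The wider pathway was read from 10 lists of other genes of break repair. Of 99 measured genes in these lists, 4 were higher and 8 lower by 2-fold or more, and the median was 0.02. These shares, 4.04% and 8.08%, again lay below the background shares over all measured genes. Among 9 measured genes of other end joining steps, Tdp2, which frees ends blocked by topoisomerase 2, was at 7.83 and 9.23 (1.40) and was the only one past 2-fold. In the 53BP1 and shieldin axis, Dynll1, a dynein light chain that binds 53BP1, was lower by -1.08, and the other 5 measured genes were within 2-fold. Vcp, the segregase that removes ubiquitinated proteins, Ku among them, from chromatin, was at 10.31 and 11.76, a difference of 1.46. It was the only one past 2-fold of 12 measured genes for ubiquitin and SUMO at breaks, which had a median of 0.36.

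Several complexes again held members that lay apart. Of the 9-1-1 clamp that assists ATR, Rad9a was at 9.45 and 7.93 (-1.52), while its partners Hus1 and Rad1 were positive, at 0.53 and 0.45. Rad9b, a paralog of Rad9a, was under background at 4.81 in wild-type and stood at 6.28 in KAT5 KO cells, at least 2.22-fold higher. Etaa1, which activates ATR apart from TOPBP1, was at 6.29 and 5.25 (-1.04). Swi5, which forms a complex with Sfr1, was at 8.36 and 10.32 (1.96), whereas Sfr1 was at 9.86 and 9.80 (-0.06).
The helicase-nuclease Dna2, which trims ends beside EXO1, was at 7.71 and 6.54 (-1.17), and Rmi1, a partner of BLM, was at 9.87 and 8.77 (-1.10). For both genes of the cohesin loader the KAT5 KO array was lower, with Nipbl at 13.55 and 11.94 (-1.61) and Mau2 at 10.05 and 8.82 (-1.23). The cohesin subunit Stag2 was at 12.50 and 11.37 (-1.12), while the ring subunits Smc1a and Smc3 differed by -0.10 and 0.41.

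All 5 genes of the BRCA1-A complex, which holds BRCA1 at ubiquitin marks and restrains trimming, were positive and none reached 2-fold. Of all 11654 measured genes, 5512 were positive. Babam2 was at 11.60 and 12.57, Brcc3, the deubiquitinase, at 9.67 and 10.50, and Abraxas1, the scaffold, at 8.00 and 8.80. None of 11 measured genes of the Fanconi pathway of crosslink repair and none of 8 phosphatases and ATM regulators were counted past 2-fold. Their medians were -0.07 and -0.08. For Fanca, Fancd2, Fancf, Fan1 and Telo2 only a lower bound is known. Fancd2, at 5.56 and 4.37, differed by -1.19 without the background level.

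Genes that p53 switches on after DNA damage were past 2-fold about as often as measured genes at large. Of 17 measured, 4 were higher (23.5%, against 17.7% of all) and 3 were lower (17.6%, against 15.9%), and the median was -0.22. Cdkn1a, the cell cycle inhibitor most used as a readout of p53, was at 8.39 and 8.29, a difference of -0.10, and Mdm2, which restrains p53, was at 10.46 and 9.87. Perp, a protein of epithelial junctions, was at 6.08 and 7.98 (1.91), Rps27l at 7.65 and 8.81 (1.16), and the apoptosis gene Pmaip1 at 6.68 and 7.80 (1.12). Btg2, an immediate early gene as well, was at 13.42 and 11.08 (-2.34), Sesn1, a stress-response gene, at 9.95 and 8.65 (-1.30), and Ddit4, also induced by hypoxia, at 6.23 and 5.19 (-1.03). Sesn2, a paralog of Sesn1, went the other way and was also past 2-fold, at 6.22 and 7.32 (1.10).

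**Figure D4:**
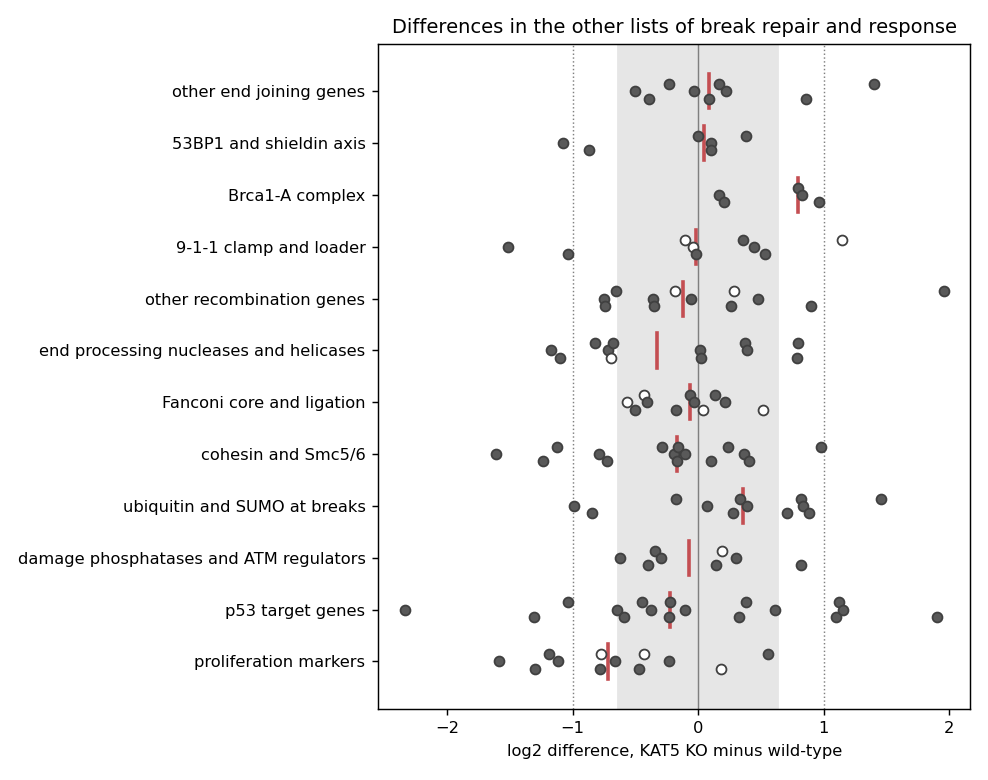
Differences (log2, KAT5 KO minus wild-type) of measured genes in 12 lists of break repair and response, with a point per gene, open for lower bounds, and a red line at each list's median. Grey marks the middle 50% of all measured genes, and the medians lie between -0.72 for proliferation markers and 0.80 for the BRCA1-A complex.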

How the data were processed

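Per the labels and the methods, RNA of isolated PT cells was hybridised to Clariom S mouse arrays and processed by the authors with RMA in the Transcriptome Analysis Console, versions not stated, and the authors deposited log2 levels of 28846 probe sets. These were used as deposited. Probe sets with the symbol of 1 gene in the platform annotation (19572) were averaged by gene, and each of the 32 repair genes had 1 probe set. For the background level, the 95th percentile of the receptor genes was taken on each array and the higher value used. With 1 array per genotype no test was run. Differences, counts at 2-fold and list medians were computed, and the steps that give differences were tested on simulated data. There, changes were placed only in genes well above background, with less scatter than the receptor genes had. The lower bounds of dim genes were therefore not checked by it. Alternatives were centring, quantile normalization, a loess trend (span 0.3) removed, other background levels, the brightest probe set, thresholds of 1.5-fold and 3-fold, means, and other list members. Members and lists were chosen with earlier results of these data known. All repair genes are given, with up to 3 genes past 2-fold in each direction of each further list, and head-to-head neighbours. A few further genes were named after their values were seen. Neighbours were taken from the starts in the RefSeq promoter table, which gives strands. Python 3.11.15, numpy 2.4.6, pandas 2.3.3, statsmodels 0.14.6 and matplotlib 3.10.9 were used.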

Additional observations from a re-analysis of the deposited data

How the results depend on the processing

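Under centring, quantile normalization, removal of the trend on level and the brightest probe set, the counts of repair genes past 2-fold stayed within 1.5 times of 3 higher and 1 lower. The 3 became 2 with quantile normalization and with either higher background level. At 1.5-fold, 6 were higher and 5 lower, and at 3-fold 1 was higher. With no background level 3 were lower, Palb2 (-1.13) and Rad54l (-1.25) joining Mre11a. For the 12 further lists, 8 higher and 15 lower genes became 22 and 33 at 1.5-fold and 2 and 3 at 3-fold. The gap between recombination and end joining ranged from -1.30 to -0.92, and was -0.96 with the background level from the 99th percentile (5.89) and -0.92 with the wider lists. Leaving out Xrcc5 was chosen after seeing the data. The background level set the bound of Lig4, which was 0.64 and 0.94 with the higher levels of 5.89 and 5.59. Xrcc6 was 0.98 with quantile normalization. Xrcc5 (3.20 to 3.34), Mre11a (-1.77 to -1.60) and Kat5 (-1.68 to -1.44) kept their direction and side of 2-fold in each setting run. The median of the repair genes lay between -0.24 and 0.0026, the latter as a mean. Of the further genes, Dynll1, Etaa1, Rad9b, Stag2, Ddit4 and Pcna fell inside 2-fold in at least 1 setting. The causes were not tested. No paired analysis was possible because there is 1 array per genotype.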
